A study of Homo sapiens with 16 samples.

Results

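The subject is the genes that encode the subunits of the respiratory chain and of the mitochondrial ATP synthase in human pancreatic progenitor cells exposed to the actin-depolymerising drug latrunculin B. Members were all protein-coding GENCODE genes with symbols of the NDUFA, NDUFB, NDUFC, NDUFS, NDUFV, SDHA to SDHD, UQCR, COX4 to COX8, ATP5F1, ATP5M and ATP5P series, together with the MT-ND, MT-CO, MT-CYB and MT-ATP genes of the mitochondrial genome, and without assembly factors. They numbered 102 of 35810 genes, 89 in the nuclear genome and 13 in the mitochondrial genome. Of the nuclear members, 82 passed the filter on low counts and could be tested, and all 13 mitochondrial members passed.

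The cells were differentiated from the human embryonic stem cell line SA121, carrying an NGN3-GFP reporter, which is a single line. At day 19 of differentiation they received latrunculin B (LatB) at 0.5 µM for 3 h (n = 3), 6 h (n = 3), 12 h (n = 2) or 24 h (n = 3). Controls were cells at 0 h (n = 3), labelled DMSO but described in the series text as harvested before treatment, and cells after 24 h of DMSO (n = 2). There were no vehicle libraries at 3, 6 or 12 h, so LatB at those times was compared with control 0 h, and time in culture cannot be told apart from treatment there. All 16 libraries were made from poly(A)-selected RNA. The labels do not say that replicates were separate cultures, so p-values may measure technical spread only.

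The respiratory chain passes electrons from NADH (complex I) and succinate (complex II) through complex III to oxygen at complex IV, and complexes I, III and IV pump protons whose return through complex V, the ATP synthase, drives ATP formation. Most subunits are encoded in the nucleus, made in the cytosol and imported, while the mitochondrial genome encodes core subunits of complexes I, III, IV and V. The mitochondrial genes are transcribed as long precursors by a dedicated polymerase and then cut, and most of their messages are polyadenylated. Complex II is encoded by nuclear genes alone. Building the complexes therefore needs transcripts of both genomes.

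Several sequences are shown because they bear on how the members can be measured and on what the nuclear members share. In the mitochondrial genome (16569 bases in the hg38 build), 12 members lie on one strand and MT-ND6 (M:14149-14673) on the other. Neighbouring members overlap at 3 pairs. MT-ATP6 and MT-CO3 share 1 base, and the pairs with the longer overlaps follow, where capitals mark the bases that belong to both genes, read from hg38 on the plus strand. A read from those bases cannot be assigned to 1 gene, so the division of reads within each pair is uncertain.
MT-ATP8/MT-ATP6, chrM:8515-8584: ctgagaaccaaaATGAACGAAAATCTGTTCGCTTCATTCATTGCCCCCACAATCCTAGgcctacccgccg
MT-ND4L/MT-ND4, chrM:10748-10778: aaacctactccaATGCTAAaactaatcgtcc

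For the nuclear members, promoter windows of RefSeq (GRCh38.p14, 250 bases before and 50 from the start) were matched by symbol for 70 of 89. NRF1 and GABP are the transcription factors best known for binding promoters of respiratory genes, and YY1 is another factor described there. The core of the NRF1 motif, GCGCA followed by any base and then GCGC, stood on either strand in the windows of 17 of the 70 members (24.3%), against 6.98% of all 27305 genes with a window and 9.67% of the 15843 protein-coding ones. The letters CCGGAAG, an ETS core as bound by GABP, stood in 21 of 70 (30.0%), against 12.2% of all genes and 16.5% of protein-coding genes. The letters AAGATGGCG, bound by YY1, stood in 9 of 70 (12.9%), against 2.14% and 3.21%. No sites of different motifs overlapped in a member's window, and 40 of 70 members held at least 1 of the motifs. The stretches below are from members named again further on. They run 5′ to 3′ along the gene's own strand and end before its start. Capitals mark the NRF1 core in SDHA and NDUFA12 and the ETS core in NDUFB7, UQCRH and COX5B. The window of SDHA held 4 NRF1 cores spaced 49 bases apart, of which 3 lie in the stretch shown.
SDHA, chr5:218129-218302, plus strand: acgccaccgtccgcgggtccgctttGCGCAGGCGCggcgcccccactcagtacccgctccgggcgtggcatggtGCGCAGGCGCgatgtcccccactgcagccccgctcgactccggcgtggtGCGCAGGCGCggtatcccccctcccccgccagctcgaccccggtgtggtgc
NDUFA12, chr12:95003779-95003838, minus strand: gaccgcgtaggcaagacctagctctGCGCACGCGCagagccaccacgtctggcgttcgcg
NDUFB7, chr19:14572067-14572126, minus strand: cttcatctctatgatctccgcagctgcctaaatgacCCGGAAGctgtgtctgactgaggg
UQCRH, chr1:46303627-46303686, plus strand: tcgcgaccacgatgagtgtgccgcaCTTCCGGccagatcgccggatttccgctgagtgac
COX5B, chr2:97646000-97646059, plus strand: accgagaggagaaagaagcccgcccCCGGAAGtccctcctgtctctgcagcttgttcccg

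Libraries held 23609727 to 33515398 reads. Replicates correlated at 0.980 to 0.986 (log2 scaled counts over all tested genes), except the 12 h pair at 0.967. LatB 12 h replicate 2 stood apart from the other libraries. Its 6 mesenchyme markers summed to 1042 CPM (read counts scaled to a fixed library size), against 159 to 433 elsewhere, and 5 of the 6 were highest there. Its 3 endothelial markers summed to 40.2 CPM, against 3.68 to 16.1. Its 7 pancreatic progenitor markers summed to 1823 CPM, against 2456 to 3372. The 7 endocrine markers summed to 30.0 to 36.9 CPM at control 0 h, 61.2 to 72.0 at control 24 h and 108 to 298 at LatB 24 h, with 6 of 7 called higher at LatB 24 h. The part of these shifts in cell makeup in the results below was not tested, and in bulk RNA fewer cells of a type and less RNA per cell cannot be told apart.

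The mitochondrial genome gave far more transcript per gene than the nuclear genome. Per length, as TPM (transcript abundance scaled to a fixed sum per library), the 13 mitochondrial members had a median level of 8982 TPM at control 0 h, from 3395 for the lowest to 30847 for MT-ATP8, whose short length makes its TPM sensitive to the length correction. The 82 tested nuclear members had a median of 197 TPM and a range of 0.355 to 1347. COX7C, a small subunit of complex IV, was the nuclear member with the highest level at 1347 ± 22.6 TPM (SD, n = 3), and COX4I1, ATP5MF, ATP5MK and ATP5ME followed at 756 to 825 TPM. By complex, the nuclear median ran from 76.9 TPM for complex II and 118 TPM for complex I to 219 TPM for complex III, 327 TPM for complex V and 366 TPM for complex IV.

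The share of a library's reads that came from the mitochondrial members was at most 4.12% in LatB libraries from 6 h on, while 4 of the 5 control libraries lay above that. At control 0 h the mitochondrial share was 3.83%, 5.23% and 4.62%, and at control 24 h 5.22% and 4.28%. It was 5.16%, 3.80% and 4.75% at LatB 3 h, a similar range to that of the controls. At LatB 6 h it was 3.45%, 4.12% and 3.32%, at 12 h 4.12% and 2.29%, and at 24 h 3.13%, 3.67% and 3.41%. All 3 libraries at LatB 24 h thus lay below both controls of the same time and below all 3 at 0 h, whereas those at 6 and 12 h overlapped control 0 h. The lowest share, 2.29%, was that of LatB 12 h replicate 2, the library with high mesenchyme markers.

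**Figure D1:**
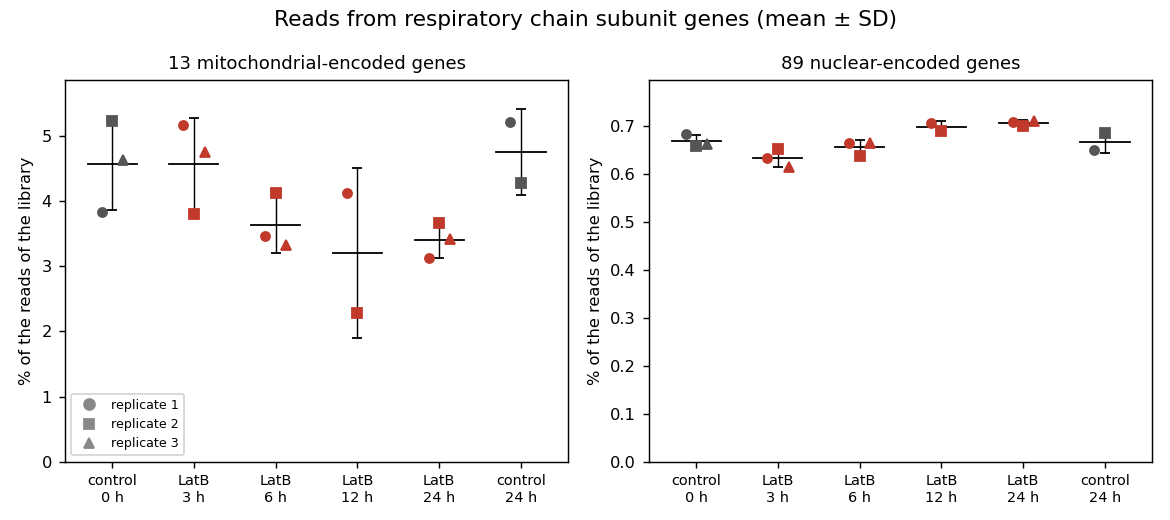
Share of each library's reads (%) from the 13 mitochondrial-encoded genes (left) and the 89 nuclear-encoded genes (right), with both axes from 0. Symbols are libraries by replicate number, grey for controls and red for LatB, bars show mean ± SD, and the 3 LatB 24 h libraries lie at 3.13% to 3.67% on the left, below every control, and at 0.701% to 0.711% on the right, above every control.

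The nuclear members gave 0.651% to 0.685% of the reads in the 5 control libraries, 0.615% to 0.652% at LatB 3 h and 0.701% to 0.711% at LatB 24 h. The ratio of mitochondrial to nuclear member reads was 6.84 ± 1.18 at control 0 h (SD, n = 3), 7.13 ± 1.25 at control 24 h (n = 2) and 7.23 ± 1.24 at LatB 3 h (n = 3). It was 5.55 ± 0.794 at LatB 6 h (n = 3), 4.57 ± 1.78 at 12 h (n = 2) and 4.81 ± 0.412 at 24 h (n = 3). The 2 genomes therefore lay further apart from their control balance at 24 h than at 3 h, with the mitochondrial share lower and the nuclear share slightly higher. Reads assigned to nuclear pseudogene copies of the mitochondrial genes added at most 0.0883% of a library and left these relations as they were.

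Individual mitochondrial genes varied far more between replicates than nuclear ones, which limited the tests. The median coefficient of variation of CPM within a group was 8.69% to 47.6% over the 13 mitochondrial members and 2.67% to 5.48% over the 82 nuclear members. The 47.6% was that of LatB 12 h, and the mitochondrial value in the other groups was 8.69% to 15.5%. It was 8.69% at LatB 24 h and 11.7% at control 24 h, but the fit took its spread from all 6 groups. At LatB 24 h against control 24 h, the log2 fold changes had a median standard error (SE) of 0.23 for mitochondrial members and 0.06 for nuclear ones. Fold changes are from edgeR's quasi-likelihood test on all 6 groups, and a gene was called at a Benjamini-Hochberg adjusted p under 0.05 over all 16705 genes tested.

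At 24 h of LatB all 13 mitochondrial members had negative log2 fold changes against control 24 h, from −0.73 to −0.21 with a median of −0.41, and 1 passed the test. That gene was MT-CO1 (M:5904-7445), which encodes the catalytic subunit of complex IV. Its level was 15924 and 12452 CPM at control 24 h and 7915, 9297 and 8515 CPM at LatB 24 h, so the groups did not overlap. The log2 fold change was −0.73 (SE 0.21, adjusted p = 0.0151). Without control 24 h replicate 1 it was −0.54 with an adjusted p of 0.166, so the call rested on that library. Across all genes 18.8% were called lower in this comparison, against 1 of 13 here. With LatB 24 h and control 24 h fitted alone, 10 of the 13 were called lower, and 3096 of 16104 genes. In 12 of the 13 genes every LatB library lay below both controls, the exception being MT-CO3, while 30.5% of all genes were separated that way. Most of these genes are transcribed and processed together, and all share each library's mitochondrial content, so they are not independent of each other.

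At 12 h the 13 fold changes against control 0 h were again all negative, with a median of −0.49, and MT-ND5 (complex I) and MT-CO1 were called lower, 2 of 13 where 16.8% of all genes were called lower. MT-ND5 stood at 3797, 5183 and 4451 CPM at control 0 h and at 3764 and 1839 CPM at LatB 12 h, a log2 fold change of −0.68 (SE 0.25, adjusted p = 0.0498). MT-CO1 stood at 10882, 15973 and 13815 CPM against 11063 and 6536 CPM, a log2 fold change of −0.62 (SE 0.22, adjusted p = 0.0403). In both genes LatB 12 h replicate 1 was close to the lowest control and replicate 2 far below it. Without replicate 2 no mitochondrial member was called and the median became −0.06, and without replicate 1 all 13 were called lower with a median of −1.10. Leaving out control 0 h replicate 2 or 3 also ended both calls, and leaving out control 0 h replicate 1 gave 5 calls.

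No mitochondrial member was called at 3 h, where the median log2 fold change was 0.13, or at 6 h, where it was −0.22. None of the 13 reached an unadjusted p under 0.05 at 3 or 6 h in edgeR, against 7 at 12 h and 5 at 24 h. Of all 16705 genes, 6873, 8296, 7544 and 8136 did so at 3, 6, 12 and 24 h. DESeq2 also called 0 mitochondrial members at both early times. Control 24 h against control 0 h gave 0 calls and 0 of these genes at an unadjusted p under 0.05, with a median of 0.03. In that comparison 0.251% of all genes were called, and 1414 of 16705 had an unadjusted p under 0.05.

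**Figure D2:**
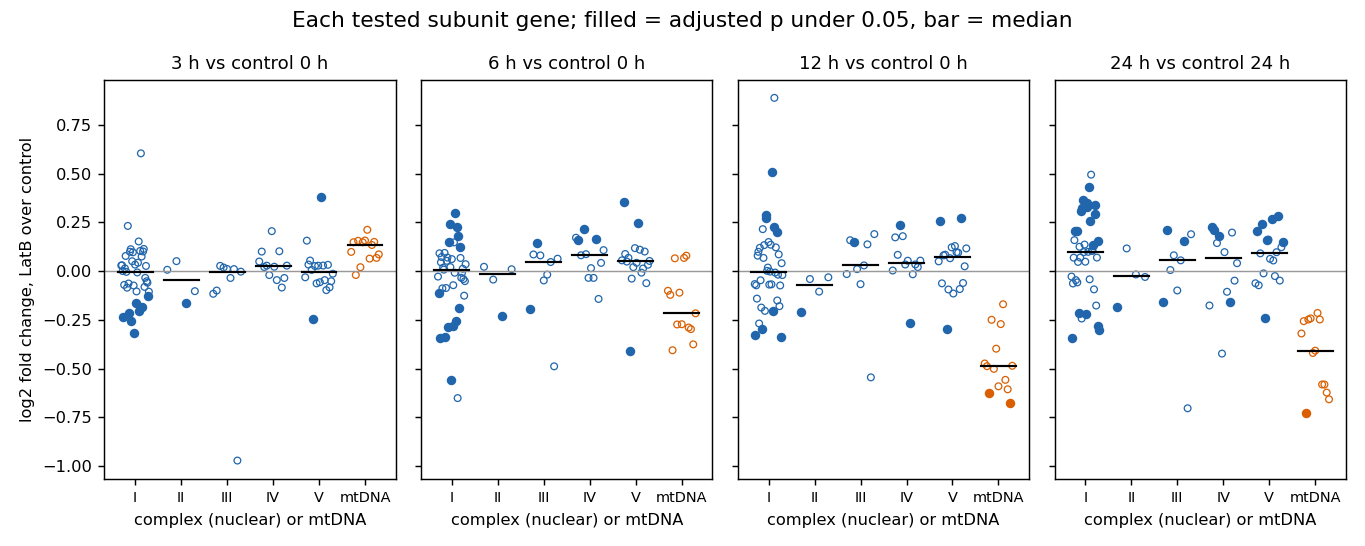
Log2 fold change (LatB over control) of each tested member at 4 times, nuclear members by complex (blue, I to V) and the 13 mitochondrial members (orange, mtDNA). Filled points passed an adjusted p under 0.05, bars are medians, and the mitochondrial median moves from 0.13 at 3 h to −0.41 at 24 h while the nuclear medians stay near 0.

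The make-up of the mitochondrial reads also differed. MT-CO1 supplied 28.0% to 30.5% of the reads of the 13 genes in the 5 control libraries. It supplied 26.8% to 27.6% at LatB 3 h, 25.8% to 26.1% at 6 h and 25.0% to 25.8% at 24 h, all below the controls. The 12 h libraries gave 26.0% and 29.1%, so replicate 2 was within the control range. MT-ND2 (M:4470-5511), which encodes a membrane subunit of complex I, supplied 5.77% to 6.23% in controls and 6.65% to 7.61% in the 11 LatB libraries, the only 1 of the 13 whose share did not overlap between these sets. MT-CO2 supplied 6.18% to 7.27% in controls and 6.66% to 8.59% under LatB, with all libraries from 6 h on above the controls. These shares sum to 100% within a library, so a lower share of MT-CO1 raises the others by itself.

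**Figure D3:**
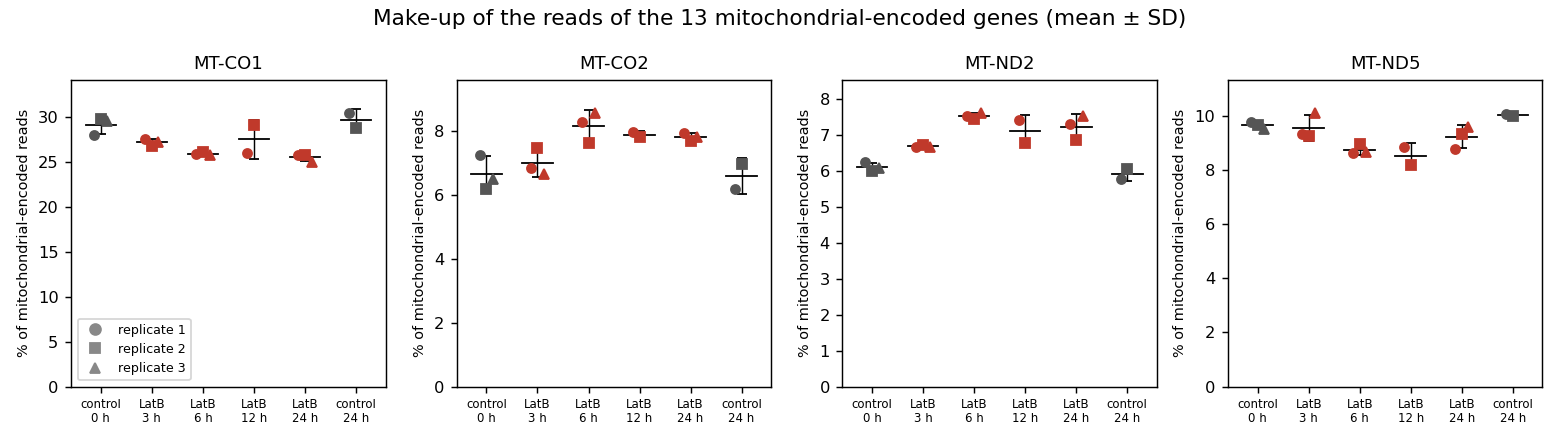
Share of 4 genes among the reads of the 13 mitochondrial-encoded genes in each library (%), axes from 0, symbols by replicate, grey for controls and red for LatB, bars mean ± SD. MT-CO1 is below the control range of 28.0% to 30.5% in 10 of the 11 LatB libraries, and MT-ND2 is above its control range of 5.77% to 6.23% in all 11.

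The nuclear members moved little as a set and individual genes moved in both directions. The median log2 fold change was 0.00 at 3 h, 0.03 at 6 h, 0.03 at 12 h and 0.09 at 24 h, beside 0.00, −0.01, 0.01 and 0.01 over all genes. At 3 h, 1 of 82 was called higher and 10 lower, where 16.8% of all genes were higher and 14.7% lower, so 1.22% and 12.2% of the members. Against control 24 h in place of control 0 h, 4 were higher and 4 lower at 3 h, and 4 of the 11 calls were kept. At 6 h, 12 were called higher and 11 lower (background 22.9% and 20.4%). At 12 h, 9 were higher and 7 lower (background 19.1% and 16.8%). This split depended on which LatB 12 h library was kept. The nuclear median was 0.06 without replicate 2 and −0.0003 without replicate 1, beside −0.004 and −0.0001 over all genes. At 24 h, 24 were higher and 9 lower (background 21.9% and 18.8%). Over the 4 times, 37 of the 82 were never called, 26 were called higher only, 17 lower only and 2 in both directions, and no gene was called at all 4 times. Called in either direction were 31.6%, 43.3%, 35.8% and 40.8% of all genes at the 4 times, against 11, 23, 16 and 33 of the 82 members. Every LatB library lay above every control for 11, 19, 22 and 36 of the 82 at 3, 6, 12 and 24 h (25.3%, 29.5%, 26.3% and 33.4% of all genes) and below for 15, 12, 13 and 17 (23%, 27.9%, 25.1% and 30.5% of all genes). These counts depend on the scaling of the libraries. With no scaling beyond library size they were 1 higher and 25 lower at 3 h, 3 and 19 at 6 h, 16 and 7 at 12 h, and 32 and 6 at 24 h. All genes shifted too. Of all 16705 genes, 1931 were then higher and 3411 lower at 3 h, and 2708 and 4475 at 6 h. At 12 h these were 3457 and 2649, and at 24 h 4023 and 2908. Without control 24 h replicate 1, which leaves that group without a replicate, fewer members were called at 24 h, and fewer of all genes too. The median over the 82 was then 0.04, beside 0.02 over all genes. Without control 0 h replicate 1 or LatB 3 h replicate 3, the 3 h total was 6 in place of 11.

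In complex I, which oxidises NADH and holds 39 of the 82 tested nuclear members, 8 subunits were called lower at 3 h (20.5%, against 14.7% of all genes) and 0 higher. At 24 h, 13 were higher and 5 lower (33.3% and 12.8%, against 21.9% and 18.8% of all genes). NDUFB3 (2:201071433-201085750), a subunit of the membrane arm, fell early and was back by 12 h. It stood at 27.7, 23.7 and 26.3 CPM at control 0 h, at 21.5, 21.4 and 19.4 CPM at LatB 3 h and at 18.2, 16.8 and 17.7 CPM at 6 h. Both LatB groups lay wholly below the controls, and the log2 fold changes were −0.32 (SE 0.07, adjusted p = 0.00298) and −0.56 (SE 0.07, adjusted p = 2.93e-05). At 12 h it stood at 24.8 and 27.6 CPM, within the range of the controls, and at 24 h at 27.6, 28.5 and 27.7 CPM against 25.9 and 25.0 CPM in control 24 h. The later log2 fold changes, 0.02 and 0.14, did not pass the test.

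Other complex I genes called lower at 3 and 6 h included NDUFA12, NDUFB5, NDUFB1 and NDUFC1, with log2 fold changes of −0.17 to −0.25 at 3 h and −0.26 to −0.34 at 6 h. NDUFB5 stood at 69.4 to 70.3 CPM at control 0 h and 56.8 to 57.8 CPM at 6 h, and was also lower at 24 h (−0.22, SE 0.05, adjusted p = 0.00272). NDUFA12, whose promoter stretch is shown above, fell to 23.2 to 27.5 CPM at 6 h from 30.7 to 32.6 CPM, and was not called at 12 or 24 h. NDUFA8 and NDUFV2 were called lower at 3 h alone among the early times, at −0.22 and −0.13, and NDUFV2 was called higher at 24 h, at 0.15. The 3 h calls of NDUFA8, NDUFV2, NDUFB1 and NDUFA12 ended under several of the left-out libraries, among them control 0 h replicate 1 and LatB 3 h replicate 3, and that of NDUFC1 without either of those.

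Other complex I genes, NDUFB9, NDUFB10, NDUFB11 and NDUFC2, were called higher at 6, 12 and 24 h. NDUFS3 was too (0.12, 0.20 and 0.13), but its 6 h call ended under 13 of 15 alternatives and its 24 h call under 10 of 14. Those of NDUFC2 (0.22, 0.22 and 0.25) ended under 2 of 15, 4 of 14 and 1 of 14. NDUFB9 stood at 49.2 to 55.3 CPM at control 0 h and 51.0 and 58.7 CPM at control 24 h. It stood at 61.9 to 65.4 CPM at LatB 6 h, 75.7 and 71.8 CPM at 12 h and 73.1 to 75.3 CPM at 24 h. Every LatB library from 6 h on was above all 5 controls, and the log2 fold changes were 0.30 (SE 0.06), 0.51 (SE 0.06) and 0.43 (SE 0.06), with edgeR adjusted p of 0.000986, 5.05e-05 and 0.000184. NDUFB11 (X:47142071-47145466) rose by 0.24, 0.27 and 0.37 and NDUFB10 by 0.15, 0.29 and 0.32 on the log2 scale at the same times, although the 6 h call of NDUFB10 ended under 11 of 15 alternatives. Of the 11 NDUFB genes tested, 5 were called higher at 24 h (NDUFB6, NDUFB7, NDUFB9, NDUFB10 and NDUFB11) and NDUFB5 was called lower. NDUFAB1, the mitochondrial acyl carrier protein that is also a complex I subunit, rose at 24 h to 43.6 to 44.3 CPM from 34.5 and 36.3 CPM (0.31, SE 0.05, adjusted p = 0.000467).

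A few complex I genes were lower at the late times. NDUFA10 (2:239892450-240025743), a matrix-facing accessory subunit, stood at 94.3 to 100.7 CPM at control 0 h and at 98.8 to 100.6 CPM at LatB 3 h. It stood at 77.0 and 79.0 CPM at 12 h and at 77.9 to 80.9 CPM at 24 h, against 103.0 and 98.5 CPM at control 24 h. The log2 fold changes were −0.33 (SE 0.04, adjusted p = 6.74e-05) and −0.34 (SE 0.04, adjusted p = 3.97e-05), and neither call ended under any alternative tried. NDUFV1, which carries the NADH site, stood at 67.5 to 73.6 CPM at LatB 24 h against 85.3 and 84.0 CPM, a log2 fold change of −0.28 (SE 0.08, adjusted p = 0.0143) that was no longer called without either control 24 h library. NDUFV3 fell by 0.30 at 24 h (SE 0.06, adjusted p = 0.00208). NDUFA7 fell by 0.34 at 6 h, 0.30 at 12 h and 0.22 at 24 h, the later calls ending under 2 and 5 of 14 alternatives. NDUFS1, the largest subunit of the same arm, was instead called higher at 6 h (0.18, SE 0.04, adjusted p = 0.00144), although not with the libraries unscaled.

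**Figure D4:**
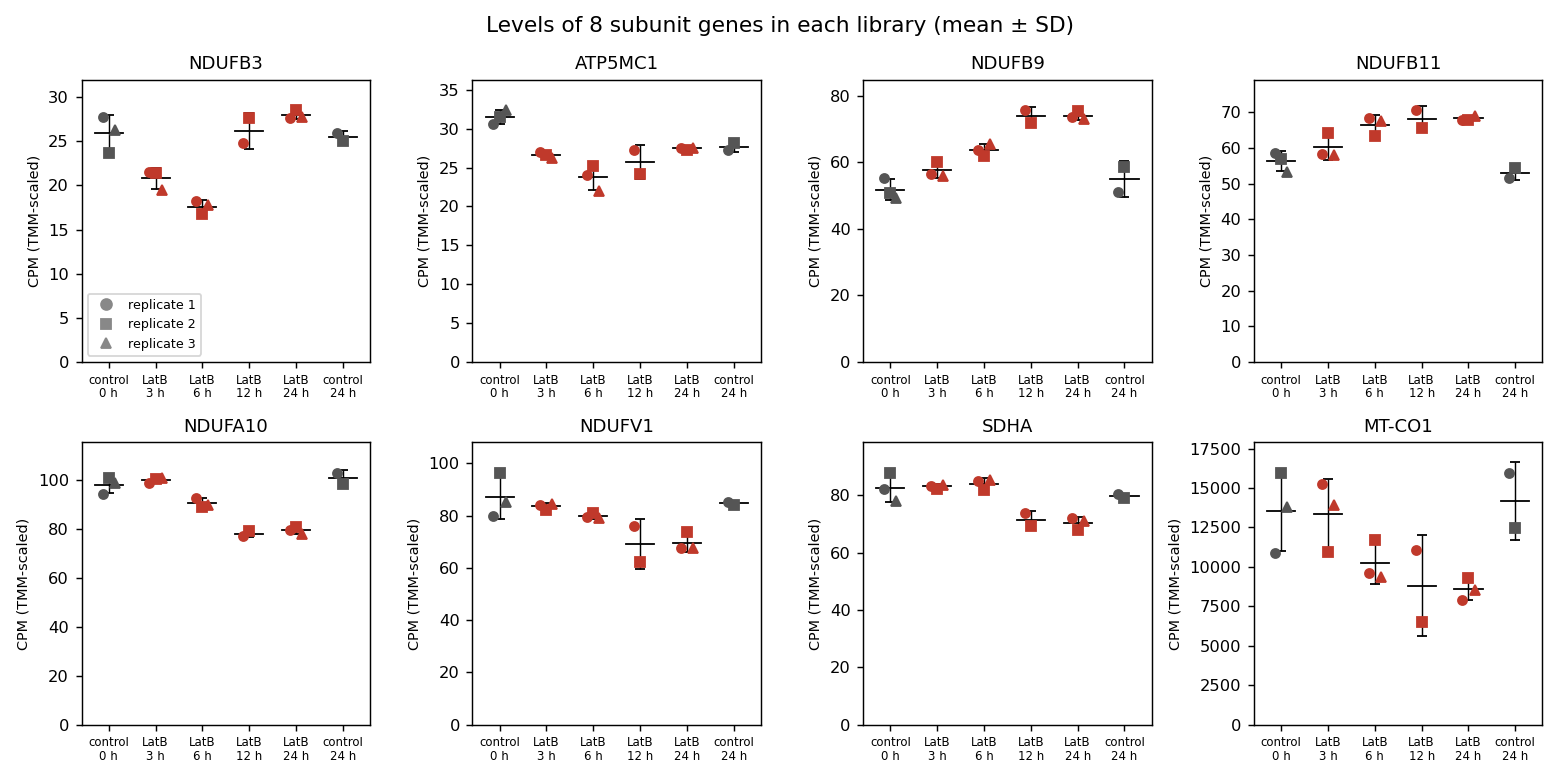
Levels of 8 members in each library in TMM-scaled CPM, axes from 0, symbols by replicate, grey for controls and red for LatB, bars mean ± SD. NDUFB3 and ATP5MC1 are lowest at LatB 6 h, NDUFB9 and NDUFB11 are above the controls from 6 h on, NDUFA10, NDUFV1 and SDHA are below them at 12 and 24 h, and MT-CO1 is below both 24 h controls at LatB 24 h.

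Complex II couples the citric acid cycle to the chain and has no mitochondrial-encoded subunit. SDHA (5:218303-257082), its catalytic flavoprotein, stood at 78.0 to 87.9 CPM at control 0 h and 81.7 to 85.2 CPM at LatB 6 h. It stood at 73.7 and 69.2 CPM at 12 h and at 68.0 to 71.9 CPM at 24 h, against 80.3 and 79.1 CPM at control 24 h. It was called lower at both late times (−0.21, SE 0.05, adjusted p = 0.00636, and −0.18, SE 0.05, adjusted p = 0.0120), but not at 12 h without replicate 2 nor at 24 h without control 24 h replicate 1. SDHC, a membrane anchor, moved early instead, from 129 to 133 CPM at control 0 h to 113 to 120 CPM at 3 h and 109 to 113 CPM at 6 h (−0.17 and −0.23, SE 0.04, adjusted p = 0.00859 and 0.000631). SDHB and SDHD were called at no time, with log2 fold changes between −0.10 and 0.12. SDHA has pseudogene copies that can share its reads, and adding the reads of each member's named copies to it changed no call of any nuclear member.

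In complex III, which passes electrons from ubiquinol to cytochrome c, 0 of 9 nuclear subunits were called at 3 h and 3 at 24 h. Of all genes, 31.6% and 40.8% were called at these times. UQCRC1, a core protein, and UQCRFS1, the Rieske iron-sulphur protein, were called at no time, with log2 fold changes of −0.04 to 0.08. UQCRB was called higher at 6 and 12 h (0.14 and 0.15), but these calls ended under 7 of 15 and 8 of 14 alternatives. UQCR10 was lower at 6 h (−0.19, SE 0.05, adjusted p = 0.00966) and at 24 h (−0.16), and UQCR11 and UQCRH were higher at 24 h (0.21 and 0.15). The 24 h calls of UQCR10 and UQCRH each ended under 8 of 14 alternatives. UQCRH has a near-identical copy, UQCRHL, that was counted at 0.160 to 0.780 CPM, so reads can be split between them. In complex IV, cytochrome c oxidase, 0 of 12 were called at 3 h, where 31.6% of all genes were called. COX6A1 was higher at 6 and 12 h (0.22 and 0.23) and COX5A at 6 and 24 h (0.16 and 0.23), the 6 h call of COX5A ending without any 1 of the 6 libraries compared. COX7A2 was lower at 12 h (−0.27, SE 0.07, adjusted p = 0.00909), a call that ended under 3 of 14 alternatives. COX4I1, the regulatory subunit, stood at 240 to 258 CPM at LatB 24 h and 277 and 284 CPM at control 24 h, a difference of −0.18 (SE 0.08, adjusted p = 0.0839) that did not pass. COX7A2L, which takes part in joining complexes III and IV, was called higher at 6 h (0.17) and lower at 24 h (−0.16), and both calls ended under several left-out libraries.

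Complex V held opposite movements of genes with like products. ATP5MC1, ATP5MC2 and ATP5MC3 encode the same membrane-ring c subunit behind different import signals. ATP5MC1 (17:48892765-48895871) stood at 30.6 to 32.4 CPM at control 0 h, 26.2 to 27.0 CPM at 3 h, 22.0 to 25.2 CPM at 6 h and 27.3 and 24.1 CPM at 12 h. It was called lower at these 3 times, by −0.24, −0.41 and −0.30 on the log2 scale, with adjusted p of 0.00574, 9.62e-05 and 0.00353 in edgeR. At 24 h the log2 fold change was −0.01 (adjusted p = 0.904). Against control 24 h in place of 0 h, the differences at 3 and 12 h were not called, and control 24 h itself stood −0.19 from control 0 h (adjusted p = 0.351). ATP5MC2 was lower at 24 h at 111 to 121 CPM against 135 and 137 CPM (−0.24, SE 0.06, adjusted p = 0.00490). ATP5MC3 was higher at 24 h (0.16, SE 0.06, adjusted p = 0.0373), a call that ended without control 24 h replicate 1 or any 1 of the LatB 24 h libraries.

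ATP5F1B (12:56638175-56645984), the catalytic beta subunit, rose at 6 h to 729 to 755 CPM from 571 to 600 CPM at control 0 h (0.36, SE 0.06, adjusted p = 0.000274), and was called higher at 12 h (0.26) and 24 h (0.20). The 12 and 24 h calls of ATP5F1B ended under 2 and 5 of 14 alternatives. Its partner ATP5F1A, the alpha subunit, was called at no time, with log2 fold changes of −0.06 to 0.06. ATP5PB, of the peripheral stalk, was higher at 12 and 24 h (0.27 and 0.28), and ATP5F1E and ATP5PO at 24 h (0.24 and 0.15), the call of ATP5PO ending under 7 of 14 alternatives. The only member called higher at 3 h was ATP5MF-PTCD1, a readthrough gene that shares exons with ATP5MF and PTCD1, so its reads are uncertain. It stood at 10.7 to 13.1 CPM at control 0 h and 15.6 to 16.3 CPM at 3 h (0.38, SE 0.08, adjusted p = 0.00222).

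Of the nuclear calls, 4 of 11 at 3 h, 10 of 23 at 6 h, 3 of 16 at 12 h and 8 of 33 at 24 h kept their call under every alternative tried. At 24 h these were NDUFAB1, NDUFB9, NDUFB10 and NDUFB11, which rose, and NDUFA10, NDUFB5, NDUFV3 and ATP5MC2, which fell. Without control 24 h replicate 1, which leaves that group without a replicate, most of the 33 calls at 24 h ended. Fewer of all genes were called then too. In control 24 h against control 0 h, edgeR and DESeq2 both called 0 nuclear members, where 0.0299% of all genes were called higher and 0.221% lower. The median was −0.02, and 4 members had an unadjusted p under 0.05 in edgeR (1414 of all 16705 genes). Both libraries of control 24 h lay above all of control 0 h for 4 members and below for 9 (14.4% and 14.4% of all genes).

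Most tissue-restricted isoforms were at or near 0. COX6B2 passed the filter at 1.68 TPM at control 0 h, beside 416 TPM for COX6B1, and was called at no time. NDUFA4L2, COX4I2, COX6A2, COX7A1, COX7B2, COX8C and ATP5MGL did not pass the filter, and none exceeded 0.339 CPM in any library. Their widespread counterparts were well expressed, COX4I1 at 287 ± 11.4 CPM and COX6A1 at 125 ± 5.35 CPM at control 0 h (SD, n = 3). COX7B2 had 0 reads in all libraries. NDUFA4, which by its symbol is grouped with complex I here but is now counted as a subunit of complex IV, was called higher at 24 h (0.21, SE 0.05, adjusted p = 0.00642).

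For 18 of 82 nuclear members the response at 24 h was not that at 3 h, tested in 1 contrast. The 24 h response was measured against control 24 h and the 3 h response against control 0 h. There was no 3 h vehicle, so the 3 h response also holds any effect of time in culture. The contrast was higher at 24 h for 15 and lower for 3, where 14.6% and 13.4% of all genes were called in these directions and 27.9% in either. NDUFB3 differed by 0.45 (SE 0.10, adjusted p = 0.00511) and NDUFB6 by 0.43 (SE 0.10, adjusted p = 0.00493), and NDUFA10 by −0.37 (SE 0.06, adjusted p = 0.000399). With no scaling the split was 37 higher and 1 lower, and 3583 and 1608 over all genes, whose median shifted by 0.10. Without control 24 h replicate 1, which leaves that group without a replicate, fewer members and fewer of all genes were called. The median over the 82 was then 0.04, beside 0.002 over all genes. For the 13 mitochondrial members the contrast was negative in every gene, with a median of −0.57, but 0 passed in edgeR or DESeq2. An unadjusted p under 0.05 was reached by 3 of them in edgeR, and by 6608 of all 16705 genes.

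Of the 21 tested members with an ETS core in the promoter window, 0, 3, 2 and 6 were called higher at 3, 6, 12 and 24 h and 0 lower at each time. The shares of all genes called higher at these times were 16.8%, 22.9%, 19.1% and 21.9%, and lower 14.7%, 20.4%, 16.8% and 18.8%. The ETS members higher at 24 h included NDUFB7, UQCRH and COX5B, whose stretches are printed above. Their log2 fold changes were 0.35, 0.15 and 0.21, and the calls ended under 1, 8 and 4 of 14 alternatives. Of the 46 tested members with a window but without these letters, 0, 4, 3 and 11 were higher and 7, 8, 7 and 8 lower. The median log2 fold change at 24 h was 0.12 for the former and 0.05 for the latter. Of the 16 tested with an NRF1 core, 2 were higher and 2 lower at 24 h with a median of 0.05, and of the 9 with the YY1 letters 0 were higher and 1 lower with a median of 0.07. These are descriptions of small groups without a test, and a match to the letters is not a binding site.

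Genes that build the chain and express the mitochondrial genome were followed from separate lists. Beside their counts, the shares of all genes called were 16.8% higher and 14.7% lower at 3 h, 22.9% and 20.4% at 6 h, 19.1% and 16.8% at 12 h, and 21.9% and 18.8% at 24 h. Of 51 tested assembly factors, 6 were called higher and 15 lower at 3 h (11.8% and 29.4%), 10 and 16 at 6 h (19.6% and 31.4%), 12 and 6 at 12 h (23.5% and 11.8%), and 19 and 5 at 24 h (37.3% and 9.80%). Of 78 proteins of the mitochondrial ribosome, which translates the 13 mitochondrial messages, 7 were higher and 18 lower at 3 h (8.97% and 23.1%), 16 and 18 at 6 h (20.5% and 23.1%), 21 and 2 at 12 h (26.9% and 2.56%), and 43 and 2 at 24 h (55.1% and 2.56%). Their median log2 fold changes were −0.06, 0.01, 0.09 and 0.21. Of 28 genes for mitochondrial transcription and RNA handling, 8 were higher and 7 lower at 3 h, 10 and 7 at 6 h, 9 and 4 at 12 h, and 13 and 2 at 24 h (46.4% and 7.14%), with medians of 0.01, 0.09, 0.06 and 0.20. TFAM, which packages mitochondrial DNA and activates its transcription, rose by 0.35 at 3 h, 0.39 at 6 h and 0.37 at 24 h (SE 0.07 to 0.08, adjusted p of 0.00173, 0.000584 and 0.00207). It stood at 64.3 to 71.6 CPM at control 0 h, 85.4 to 90.5 CPM at 3 h and 87.9 to 90.0 CPM at 24 h, against 66.9 and 70.7 CPM at control 24 h. TFB2M, the second factor needed to start mitochondrial transcription, was called higher at all 4 times (0.23, 0.42, 0.36 and 0.49), its 3 h call ending without any 1 of the 6 libraries compared. The polymerase POLRMT and the elongation factor TEFM were called at no time, with values from −0.14 to 0.31. SLIRP, which with LRPPRC stabilises mitochondrial messages, rose at 24 h (0.53, SE 0.07, adjusted p = 5.33e-05), and LRPPRC rose at 6 h (0.35, SE 0.05, adjusted p = 7.68e-05).

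Among the nuclear regulators of respiratory genes, PPARGC1A, a coactivator of mitochondrial biogenesis, changed direction. It stood at 40.3 to 47.3 CPM at control 0 h, 55.3 to 65.3 CPM at 3 h, 71.7 to 74.0 CPM at 6 h and 27.9 to 37.9 CPM at LatB 24 h, against 43.3 and 48.0 CPM at control 24 h. The log2 fold changes were 0.43, 0.71 and −0.45, and the difference between 24 h and 3 h was −0.87 (SE 0.20, adjusted p = 0.00646). The 24 h call ended without either control 24 h library or LatB 24 h replicate 2, and the 3 h call without any 1 of 5 libraries. PPRC1, of the same family, rose at 3, 6 and 24 h (0.61, 0.49 and 0.31), its 24 h call ending under 3 of 14 alternatives. PPARGC1B, also of this family, was called lower at 6 h (−0.97, SE 0.34, edgeR adjusted p = 0.0315). That call ended under 7 of 15 alternatives. Its log2 fold changes of −0.54 at 3 h, −0.57 at 12 h and 0.03 at 24 h were not called. The mRNA of NRF1 was higher at 3 h (0.31) and that of GABPA, the DNA-binding part of GABP, was lower at 3 and 6 h (−0.23 and −0.22). Of the mobile carrier proteins, CYCS, cytochrome c, was called higher at 3, 6 and 24 h (0.27, 0.28 and 0.25), each call ending without any 1 of at least 3 libraries. CYC1, the cytochrome of complex III, which the symbol series leave out of the members, was called at no time.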

How the data were processed

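Poly(A) RNA-seq of 16 libraries was deposited as Salmon quantification tables per transcript (Salmon 1.3.0 and hg38 per the submitters' notes), whereas the published methods name STAR. The estimated counts and TPM values were deposited by the authors. Transcripts were summed to genes with GENCODE 44 and estimated counts were rounded to whole numbers. Strand was not stated, so reads of opposite-strand genes, MT-ND6 among them, may be mixed. A deposited series table with 16 per-sample columns and the authors' own fold changes and p-values was not used. edgeR 4.0.16 (R 4.3.3) with TMM scaling, filterByExpr and the quasi-likelihood test was fitted to all 6 groups, with Benjamini-Hochberg adjustment over all genes and calls at an adjusted p under 0.05. The script was tested on simulated counts. Alternatives included DESeq2 1.42.0, other scalings, no filter, a replicate block and each library left out. CPM values are TMM-scaled. Members, lists and genes named were chosen with earlier results of these data known, and genes outside the named-gene rule were chosen after their values were seen. Values of 1 nuclear member are not reported here, although it is included in the counts.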

Additional observations from a re-analysis of the deposited data

Results flagged for a closer look

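The log2 fold change at 24 h minus that at 3 h passed edgeR's contrast test for 18 of 82 nuclear members. In the same contrast 27.9% of all genes passed. The members below are listed because their effect differed between these times. The 3 h effect is against control 0 h and the 24 h effect against control 24 h. In complex I the difference was 0.45 for NDUFB3, 0.43 for NDUFB6, 0.38 for NDUFS5, 0.37 for NDUFS6, 0.36 for NDUFB7 and 0.34 for NDUFA8. It was 0.28 for NDUFB9 and NDUFV2, 0.27 for NDUFB10 and NDUFB11, 0.21 for NDUFA4 and −0.37 for NDUFA10. In the other complexes it was 0.31 for UQCR11, 0.25 for ATP5PB, 0.22 for ATP5MC3, −0.26 for COX7A2L and −0.27 for ATP5MC2. Of the 18, NDUFB3, NDUFA10, NDUFB6 and NDUFS5 were among those that kept the call under every alternative tried. Most of the 18 calls ended without control 24 h replicate 1, where fewer of all genes were called as well.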

How the results depend on the processing

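Over single genes named or called, 2129 of 2558 alternative values kept direction and side of the threshold, 378 lost the call, 47 gained it and 4 changed sign. The 4 were at 12 h without LatB 12 h replicate 2, and leaving out 1 library at a time gave log2 fold changes from −0.80 to 0.15 for MT-CO2, −1.03 to 0.0387 for MT-CYB, −0.89 to 0.16 for MT-ND2 and −0.55 to 0.13 for MT-ND3. With no scaling, nuclear calls numbered 26 at 3 h and 38 for the difference between 24 h and 3 h, and mitochondrial calls 1 at 6 h. Of all 16705 genes, 5342 were then called at 3 h and 5191 for the difference. With no filter, nuclear calls numbered 21 at 24 h and 11 for the difference, and mitochondrial calls 5 at 12 h and 5 at 24 h. Fitting the compared groups alone gave 3 nuclear calls at 12 h, and 3, 0, 10 and 7 mitochondrial calls at 6 h, 12 h, 24 h and for the difference. RLE size factors gave 2 mitochondrial calls at 24 h, and DESeq2 gave 5 at 12 h and 3 at 24 h. Leaving out 1 library at a time gave 6 to 11 nuclear calls at 3 h, 16 to 21 at 6 h, 13 to 20 at 12 h, 10 to 31 at 24 h and 6 to 22 for the difference, and 0 to 1, 0 to 13 and 0 to 1 mitochondrial calls at 6, 12 and 24 h. Same-numbered libraries did not deviate together (correlations of −0.06 to 0.06), so no pairing by number was seen. Deviations from the mean of 2 or 3 libraries are tied to each other, so these correlations cannot exclude a pairing. The replicate block gave 9, 20, 16 and 24 nuclear calls at 3, 6, 12 and 24 h, and 0 mitochondrial calls at 12 h and 1 at 24 h. The causes were not tested. The controls at 24 h and LatB at 12 h had 2 libraries each, and mitochondrial genes had the wider spread, which limited the differences that could be detected there.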

Other observations

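Cytosolic ribosomal proteins and citric acid cycle genes were counted in the same comparisons. Of 86 tested genes with symbols of cytosolic ribosomal proteins, 18 were called higher and 0 lower at 3 h, 66 and 2 at 6 h, 27 and 1 at 12 h, and 34 and 0 at 24 h, with median log2 fold changes of 0.13, 0.21, 0.13 and 0.15. That list was made by symbol and includes RPS19BP1, named for binding such a protein. Of 13 citric acid cycle genes, 0 were higher and 1 lower at 3 h, 1 and 4 at 6 h, 0 and 5 at 12 h, and 2 and 3 at 24 h, with medians of −0.00, −0.05, −0.09 and −0.06. Of all genes, 16.8% were called higher and 14.7% lower at 3 h, 22.9% and 20.4% at 6 h, 19.1% and 16.8% at 12 h, and 21.9% and 18.8% at 24 h.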
